A study of Mus musculus with 9 samples.

Results

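The 46 genes described here encode the DNA replication machinery: the proteins that license origins, the 6 subunits of the MCM helicase, the factors that switch the helicase on, the polymerases, the sliding clamp with its loader, the single-strand binding and Okazaki fragment enzymes, the enzymes that make deoxynucleotides, and the factors that copy chromatin behind the fork. They were listed by name and role, with no rule on measured values. All 46 were in the expression table and all 46 passed the filter on low values, as part of 14029 genes tested among 21356 gene names. Their log2 values lay between 7.18 and 12.94, against library medians of 9.72 to 9.75.

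RNA-seq was done on midbrain tissue dissected from C57BL/6 mouse embryos at E13.5 in 3 groups of 3 libraries. Gpr161 is a ciliary G protein-coupled receptor that restrains Hedgehog signalling. The Gpr161 f/f embryos carried 2 floxed Gpr161 alleles and no Cre (floxed control), the Gpr161 f/+;Wnt1-Cre embryos carried 1 floxed allele and the Wnt1-Cre transgene (Cre control), and the Gpr161 f/f;Wnt1-Cre embryos carried 2 floxed alleles and the transgene (cKO). Wnt1-Cre recombination starts in the dorsal neuroectoderm of the midbrain and marks the neural crest. The study reports that Cre expression later spread widely in the neural tube, mid- and hindbrain included. A dissected midbrain may still hold cells that Cre did not reach. The labels do not say whether a library is from 1 embryo or from a pool, and the p-values measure the spread between these libraries. The values are on a log2 scale, and a difference of 1 is a 2-fold change.

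Replication starts at origins that are licensed before S phase, when the origin recognition complex, Cdc6 and Cdt1 load MCM helicases onto DNA. Cdc45 and the GINS complex then turn each loaded helicase into an active one, polymerases alpha, delta and epsilon copy the strands around the PCNA clamp, and the new DNA is methylated and packed into nucleosomes. Cycling cells express most of these genes, many of them under E2F control, and neurons that have left the cycle turn many of them down. In the E13.5 midbrain, progenitors near the ventricle divide while neurons collect in the outer layers.

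The Gpr161 transcript did not mark the genotype. Its log2 values were 11.80, 11.74 and 11.78 in the floxed control, 11.77, 11.91 and 11.96 in the Cre control and 11.74, 11.95 and 11.94 in the cKO, which is 0.11 higher in the cKO than in the floxed control (SE 0.065, adjusted p = 0.223 by limma) and differs by 0.00033 from the Cre control (adjusted p = 0.998). A gene-level value does not show whether the floxed part of the transcript was lost, so this gives no check of the genotypes, and the group names stand here for the libraries labelled so. Depth per library is unknown, because the table holds transformed values whose linear sums are near equal and hold no read counts. Replicate 1 of the cKO and of the Cre control stood apart for these genes. cKO replicate 1 held the highest of the 9 values for 43 of the 46 members (18.5% of all genes tested). Cre control replicate 1 was the highest of its own group for 35, and floxed control replicate 1 of its own group for 29. For these counts the share over all genes was not computed. Averaged over the members, the deviation from the gene mean was 0.081 in Cre control replicate 1, against -0.066 and -0.058 in its group. In floxed control replicate 1 it was -0.15, against -0.19 and -0.19, a smaller gap.

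Members as a set were higher in the cKO than in the floxed control. All 46 log2 differences were above 0 and 40 passed an adjusted p of 0.05 by limma, where 19.5% of all genes tested were called higher. The median difference was 0.40 (1.32-fold), against 0.011 over all genes tested. The 6 members that did not pass were Orc1, Orc6, Pold2, Rfc2, Rpa3 and Dnmt1. Only Rrm2 and Gins2 were also changed by more than 1.5-fold, the size with which the study defined a differentially expressed gene (background 1.34%), so the changes were small, between 1.02-fold and 1.56-fold. With cKO replicate 1 left out neither of them was past 1.5-fold, and with cKO replicate 3 left out 4 members were. The values of every cKO library were above those of every floxed control library for 45 members, and this held for 29.9% of all genes.

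Against the Cre control the differences were smaller and fewer passed. All 46 were again above 0, with a median of 0.21 (1.15-fold, all genes 0.012), and 18 passed where 4.86% of all genes were called higher. These were Cdc6, Cdt1, Mcm2, Mcm3, Mcm4, Mcm5, Mcm6, Mcm7, Pola2, Pold1, Rfc1, Fen1, Lig1, Rrm1, Rrm2, Uhrf1, Chaf1a and Chaf1b. No member was changed by more than 1.5-fold as well (background 0.335%). At an unadjusted p under 0.05 the count was 34, where 2157 of the 14029 genes tested were higher. The count of 18 changed with single libraries: it was 37 without Cre control replicate 1, 2 without Cre control replicate 2, 1 without Cre control replicate 3, 1 without cKO replicate 1 and 5 without cKO replicate 2. Of the 18 calls, 2 were lost without cKO replicate 3, and 6 when floxed control replicate 1, 2 or 3 was left out. The floxed control enters this comparison only through the shared estimate of the spread. Calls over all genes also moved in these fits. With Cre control replicate 1 and cKO replicate 1 both left out, a setting chosen after seeing the data, the count of members was 27, without Mcm7, Pola2 and Lig1. Chaf1a alone passed in all 9 fits that left out 1 library. Each cKO library was above each Cre control library for 23 members (17.8% of all genes).

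The Cre control lay between the other groups. Its difference from the floxed control was above 0 for 45 of 46 members, with a median of 0.15, but none passed the adjusted p by limma (0.0499% of all genes were called higher). At an unadjusted p under 0.05, 27 members were higher, where 8.77% of all genes were. Every Cre control library was above every floxed control library for 34 members (10.7% of all genes). The full order, each floxed control library below each Cre control library and each of these below each cKO library, held for 22 members and for 4.38% of all genes. Whether the step from the Cre control to the cKO differed from the step from the floxed control to the Cre control was also tested. No member passed in this test, by adjusted p (0.057% of all genes) or by unadjusted p (6.44%), and the differences between the steps ran from -0.19 for Gins2 to 0.23 for Rrm2. The comparisons share libraries, so their values are given side by side and do not count as separate evidence.

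**Figure D1:**
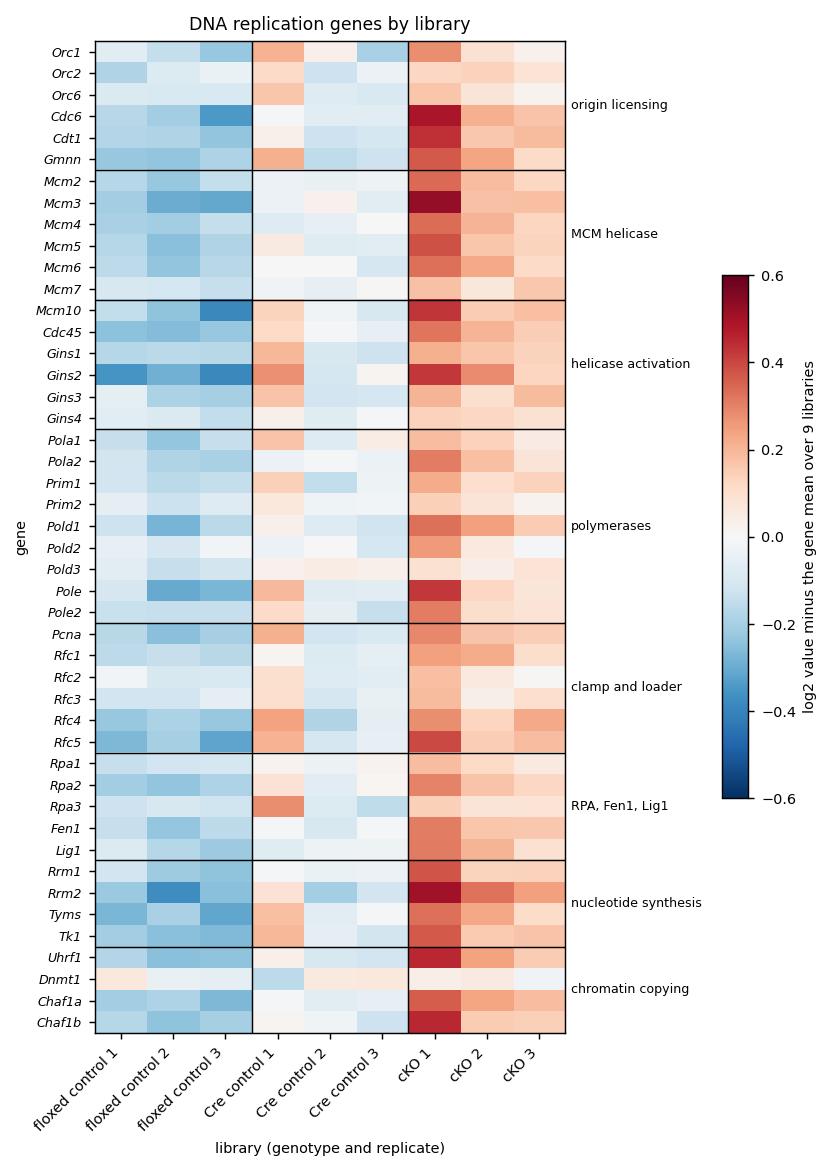
Log2 value of each of the 46 genes (rows, by role) in each of the 9 libraries (columns), minus the mean of the gene over the 9 libraries, in red where above it and blue where below. The floxed control columns are blue for every gene but Dnmt1 and the cKO columns red for every gene but Pold2 and Dnmt1, with cKO replicate 1 the highest library for 43 genes.

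Averaged over the members, the deviation from the gene mean was -0.15, -0.19 and -0.19 in the floxed control libraries, 0.081, -0.066 and -0.058 in the Cre control libraries and 0.30, 0.15 and 0.12 in the cKO libraries. The 3 groups therefore did not overlap in this mean, and Cre control replicate 1 lay closer to cKO replicate 3 than to the other Cre controls. Neuron markers moved the opposite way across the same libraries. All 12 of them (Tubb3, Dcx, Stmn2 and others) fell past the adjusted p relative to the floxed control (median -0.53). Relative to the Cre control (median -0.23), 11 of the 12 differences were below 0 and 4 passed. Their mean deviations were 0.24, 0.19 and 0.34 in the floxed control, -0.20, 0.071 and 0.089 in the Cre control and -0.36, -0.20 and -0.17 in the cKO. Cre control replicate 1 and cKO replicate 1, the highest of their groups for the replication genes, were thus the lowest of their groups for neuron markers. In whole tissue, more cells of a type and more RNA per cell cannot be told apart, and the part of tissue composition in these differences was not tested.

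Progenitor markers were mixed. Of 12 such genes (Sox2, Nes, Vim, Pax3, Pax7 and others), 7 rose and 2 fell relative to the floxed control, and 4 rose relative to the Cre control. Pax3 and Pax7 were lower in every cKO library than in every floxed control library. Summed as linear values rescaled to cpm, they spanned 3431 to 3580 in the floxed control, 3467 to 3745 in the Cre control and 3809 to 4006 in the cKO, while neuron markers spanned 6647 to 7133, 5197 to 6308 and 4513 to 5106. Markers of blood and mesenchyme also rose: erythroid markers (6 of 9 higher than in the floxed control and 4 of 9 than in the Cre control) summed to 5640 to 9629, 6730 to 7923 and 8721 to 16714, and mesenchyme markers (7 of 8 and 0 of 8) to 1080 to 1979, 1391 to 2293 and 2292 to 2399. Endothelial markers were higher for 3 of 7 against the floxed control, with sums of 202 to 265, 222 to 283 and 263 to 282, and microglia markers for 0 of 7, with sums of 96.5 to 116, 110 to 116 and 112 to 122. Of the 3 neural crest glia markers tested 1 was higher, with sums of 20.96 to 23.9, 20.6 to 22.2 and 22.3 to 23.5. The 6 midbrain markers (Otx2, En1, En2 and others) were present in every library, with sums of 438 to 507, 507 to 574 and 483 to 561. Of these, 2, Pax5 and Pax8, were higher in the cKO than in each control, and the other 4 passed in neither comparison. Of the fore- and hindbrain markers, 4 of 6 passed the filter and 3 were lower than in the floxed control, with sums of 9.66 to 16.5, 6.93 to 8.99 and 7.58 to 7.85. No list held a marker at 0 in all libraries, and the part of these cell types in the members' differences was not tested.

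**Figure D2:**
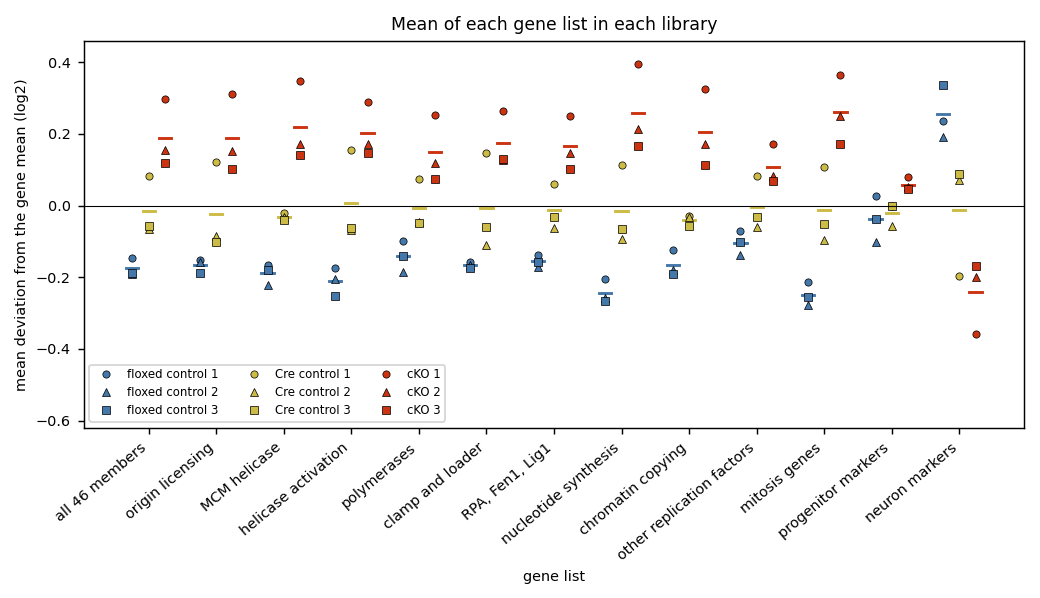
Mean deviation from the gene mean, on the log2 scale, of each group of replication genes and of lists beside them in each library (circle, triangle and square are replicates 1, 2 and 3, the bar is the group mean). The group mean of the floxed control is lowest and that of the cKO highest in every replication list, MCM genes are tight in the Cre control (-0.020 to -0.042), and neuron markers run the opposite way.

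Because the members moved together, the promoter sequences of the RefSeq table (GRCm38.p6, the build of mm10) were searched for words known from cell cycle genes. The E2F words were TTTCCCGC, TTTCGCGC, TTTGCCGC and TTTGGCGC, the others were the CCAAT box and TTTGAA, the core of the cell cycle homology region, all on both strands and in windows of 250 bases before to 50 after an annotated start. Words on opposite strands may overlap, as the E2F words of Mcm5 and Mcm6 did, and each was counted. Of 46 members, 38 had a window. An E2F word lay in 16 of the 38 (42.1%), against 4.55% of 11023 tested genes with a window and 2.6% of all 27025 genes in that table. A CCAAT box lay in 25 (65.8%, against 42.8% and 41.1%) and TTTGAA in 6 (15.8%, against 14.2% and 20.2%). The medians of members with and without an E2F word were close: those against the floxed control were 0.33 over 16 genes and 0.41 over 22, with 14 and 19 called higher, and against the Cre control 0.22 and 0.21, with 9 and 8 called. The 8 members with no window had medians of 0.37 and 0.18. A match is a string of letters and does not show that a factor binds there. Only exact copies of these words were counted, so a member without one may still hold a related form of the site.

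The windows shown are 4 with an E2F word, each from the member with the largest difference from the Cre control among those of its role with such a word, and 2 without an E2F word from the members with the largest such differences. They are trimmed to the last 200 bases of the window (245 for Uhrf1) and run 5′ to 3′ on the gene's strand with the last 50 bases after the start, and capitals mark E2F words and CCAAT boxes in either orientation. Uhrf1 (chr17:56304118-56304362, plus strand) is 1 of 2 windows of that gene, Cdc6 lies at chr11:98908001-98908200 (plus), Mcm3 at chr1:20820263-20820462 (minus) and Pold1 at chr7:44548766-44548965 (minus). Rrm2 (chr12:24708104-24708303, plus) and Chaf1a (chr17:56040266-56040465, plus) hold a CCAAT box and none of the E2F words searched. Stretches that differ from an E2F word by 1 base, which both windows hold, were not marked.
Uhrf1: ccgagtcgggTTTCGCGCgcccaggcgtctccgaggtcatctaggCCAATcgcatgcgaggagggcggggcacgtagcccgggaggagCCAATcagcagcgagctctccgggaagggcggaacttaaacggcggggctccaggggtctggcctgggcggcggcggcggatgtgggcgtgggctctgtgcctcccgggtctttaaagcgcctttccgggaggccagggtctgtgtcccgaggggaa
Cdc6: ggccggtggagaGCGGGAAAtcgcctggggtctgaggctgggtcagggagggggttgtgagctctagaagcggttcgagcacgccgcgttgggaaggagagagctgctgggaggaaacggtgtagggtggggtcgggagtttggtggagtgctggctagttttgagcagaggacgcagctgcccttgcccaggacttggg
Mcm3: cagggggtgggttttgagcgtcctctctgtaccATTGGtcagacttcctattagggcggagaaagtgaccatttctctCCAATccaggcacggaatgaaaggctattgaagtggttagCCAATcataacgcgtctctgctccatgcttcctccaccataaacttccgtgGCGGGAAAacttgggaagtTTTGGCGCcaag
Pold1: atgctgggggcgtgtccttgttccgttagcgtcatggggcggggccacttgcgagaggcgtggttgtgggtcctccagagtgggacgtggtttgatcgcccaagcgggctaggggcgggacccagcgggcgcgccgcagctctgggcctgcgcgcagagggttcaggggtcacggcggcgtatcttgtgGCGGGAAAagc
Rrm2: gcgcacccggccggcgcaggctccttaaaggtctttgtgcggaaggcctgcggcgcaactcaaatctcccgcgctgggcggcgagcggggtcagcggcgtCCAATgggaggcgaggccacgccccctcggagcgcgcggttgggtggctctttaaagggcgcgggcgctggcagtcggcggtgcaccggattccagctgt
Chaf1a: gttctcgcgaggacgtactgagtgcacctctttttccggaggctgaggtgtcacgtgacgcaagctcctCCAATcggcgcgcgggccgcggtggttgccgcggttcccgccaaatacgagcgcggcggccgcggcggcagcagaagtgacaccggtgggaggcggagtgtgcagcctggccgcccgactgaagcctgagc

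The E2F words of Cdc6 and Uhrf1 were centred at -134 and -181 from the start, those of Mcm3 at 23 and 42, in opposite orientations, and that of Pold1 at 43. Over all members, 14 of 23 E2F words and 45 of 58 CCAAT boxes lay within 100 bases before the start or after it.

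**Figure D3:**
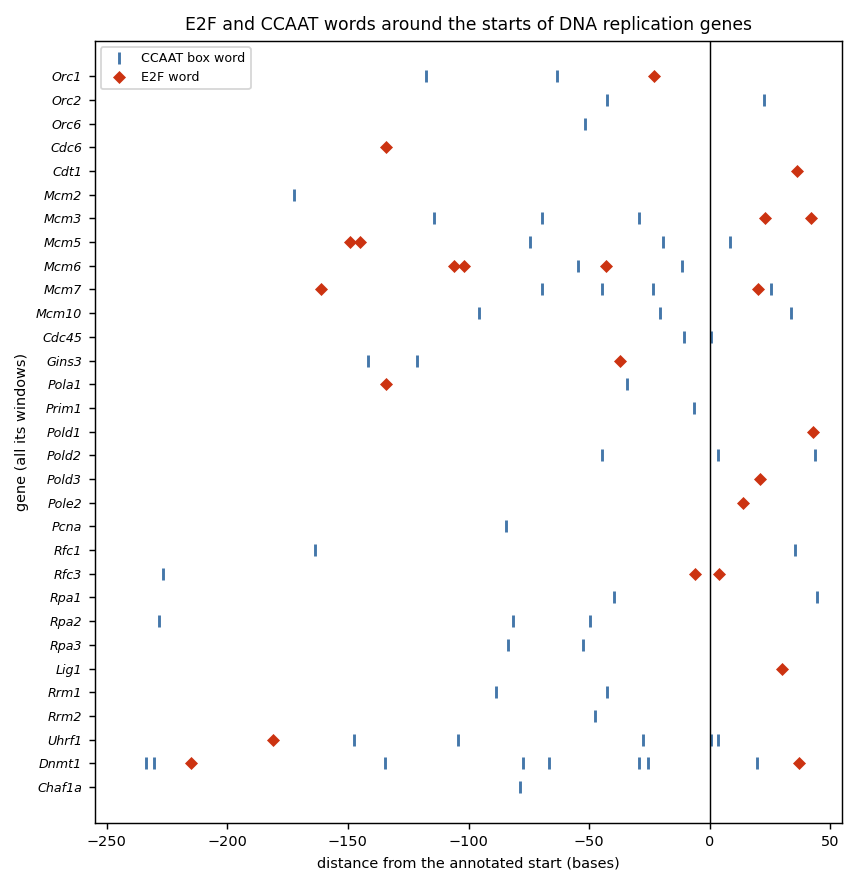
Distance in bases from the annotated start (x axis, line at 0) of each E2F word (red diamonds) and CCAAT box (blue ticks) in the promoter windows of the members that hold either. E2F words occur on both sides of the start, in 16 genes, and CCAAT boxes gather in the 100 bases before it.

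Among the origin licensing genes (Orc1, Orc2 and Orc6 of the origin recognition complex, the loaders Cdc6 and Cdt1, and geminin, Gmnn, which holds Cdt1 back), 4 of 6 rose relative to the floxed control, and the 2 loaders also relative to the Cre control. Cdc6 (chromosome 11) had log2 values of 8.63, 8.59 and 8.46 in the floxed control, 8.79, 8.73 and 8.73 in the Cre control and 9.29, 9.02 and 8.97 in the cKO. No library of a group overlapped another group, and cKO replicate 1 was highest. The difference was 0.53 (SE 0.084, adjusted p = 0.00146) from the floxed control and 0.34 (SE 0.084, adjusted p = 0.0361) from the Cre control. Cdt1 followed with 0.46 and 0.33 (adjusted p = 0.00173 and 0.0294). Geminin had 0.46 against the floxed control (adjusted p = 0.00496) and 0.26 against the Cre control (adjusted p = 0.105), where, of the 9 fits that left out 1 library, it passed in the fit without Cre control replicate 1 (adjusted p = 0.00631).

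Of the origin recognition complex, only Orc2 passed against the floxed control and none against the Cre control. Orc1 (chromosome 4) had 7.35, 7.27 and 7.18 in the floxed control, 7.62, 7.44 and 7.22 in the Cre control and 7.69, 7.51 and 7.44 in the cKO. Each cKO library was above each floxed control library, but Cre control replicate 1 reached 7.62, inside the cKO range, and the differences were 0.28 (SE 0.10, adjusted p = 0.056) and 0.12 (SE 0.10, adjusted p = 0.478). The difference from the floxed control passed with only the 6 libraries compared (adjusted p = 0.0211) and when Cre control replicate 1 or 3 was left out (0.0241 and 0.0293). Orc6 (chromosome 8) gave 10.26, 10.26 and 10.26 in the floxed control, 10.51, 10.27 and 10.26 in the Cre control and 10.52, 10.43 and 10.37 in the cKO. Its floxed control libraries were nearly equal and the same level returned in Cre control replicates 2 and 3, while Cre control replicate 1 sat with the cKO. Orc6 differed by 0.18 (SE 0.068, adjusted p = 0.0609) from the floxed control and by 0.09 (SE 0.068, adjusted p = 0.402) from the Cre control. The former passed with only the 6 libraries compared (adjusted p = 0.0124) and when Cre control replicate 1 was left out (0.00687), and, chosen after seeing the data, with cKO replicate 1 left out as well (0.0178). Orc2 differed by 0.22 from the floxed control (adjusted p = 0.021), and the call was lost when floxed control replicate 1, cKO replicate 1 or cKO replicate 2 was left out (adjusted p = 0.0816, 0.0626 and 0.0645). Exons of Orc2 share 29.8% of their bases with Nif3l1 on the opposite strand, which differed by -0.025 from the floxed control.

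The MCM helicase was the role group in which all members rose in both comparisons. Mcm2 to Mcm7 form the ring that unwinds DNA at the fork. Mcm2 (chromosome 6) had values of 11.54, 11.49 and 11.57 in the floxed control, 11.67, 11.67 and 11.68 in the Cre control and 12.05, 11.90 and 11.84 in the cKO. The 3 Cre control libraries were almost equal, above every floxed control library and below every cKO library, and the differences were 0.40 (SE 0.052, adjusted p = 0.000742) and 0.25 (SE 0.052, adjusted p = 0.0213). For Mcm3 (chromosome 1) the values were 10.99, 10.90 and 10.89 in the floxed control, 11.16, 11.22 and 11.13 in the Cre control and 11.72, 11.37 and 11.38 in the cKO. Mcm3 had the largest difference of the ring, 0.57 (SE 0.083, adjusted p = 0.00113) against the floxed control and 0.32 (SE 0.083, adjusted p = 0.0423) against the Cre control, and cKO replicate 1 was far above the other 2 cKO libraries.

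Mcm4 (chromosome 16) was at 10.89, 10.88 and 10.95 in the floxed control, 11.01, 11.04 and 11.09 in the Cre control and 11.42, 11.29 and 11.22 in the cKO. Mcm5 (chromosome 8) was at 11.10, 11.02 and 11.09 in the floxed control, 11.32, 11.19 and 11.20 in the Cre control and 11.65, 11.44 and 11.40 in the cKO. Mcm6 (chromosome 1) was at 11.89, 11.81 and 11.88 in the floxed control, 12.05, 12.05 and 11.95 in the Cre control and 12.38, 12.28 and 12.16 in the cKO. In each of these 3 genes the groups stood in the same order with no overlap. Against the floxed control the differences were 0.40, 0.43 and 0.41 (adjusted p = 0.000722, 0.0013 and 0.000884 by limma), and against the Cre control 0.26, 0.26 and 0.26 (adjusted p = 0.0194, 0.04 and 0.0248). Mcm7 (chromosome 5) had the smallest difference, with values of 11.99, 11.98 and 11.95 in the floxed control, 12.07, 12.04 and 12.10 in the Cre control and 12.27, 12.16 and 12.25 in the cKO. Its groups did not overlap either, and it differed by 0.25 (SE 0.039, adjusted p = 0.00148) and 0.16 (SE 0.039, adjusted p = 0.0382).

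On average, the Cre control was even for the ring and for the chromatin copying genes. The mean deviation of the 6 genes was -0.020, -0.032 and -0.042 in the Cre control libraries (SD 0.011) and that of the chromatin copying genes -0.029, -0.033 and -0.056 (SD 0.015), while the licensing genes gave 0.12, -0.086 and -0.10 (SD 0.12) and the clamp and loader genes 0.15, -0.11 and -0.059 (SD 0.14) in the same libraries. Thus Cre control replicate 1, which was high for most members, was not far from the other Cre controls on average for these 2 roles. All 6 were higher than in the floxed control at an unadjusted p, by 0.092 to 0.25, and none at an adjusted p by limma. The calls against the Cre control were the less firm ones: each of the 6 passed in 2 to 5 of the 9 fits that left out 1 library, with adjusted p up to 0.146.

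**Figure D4:**
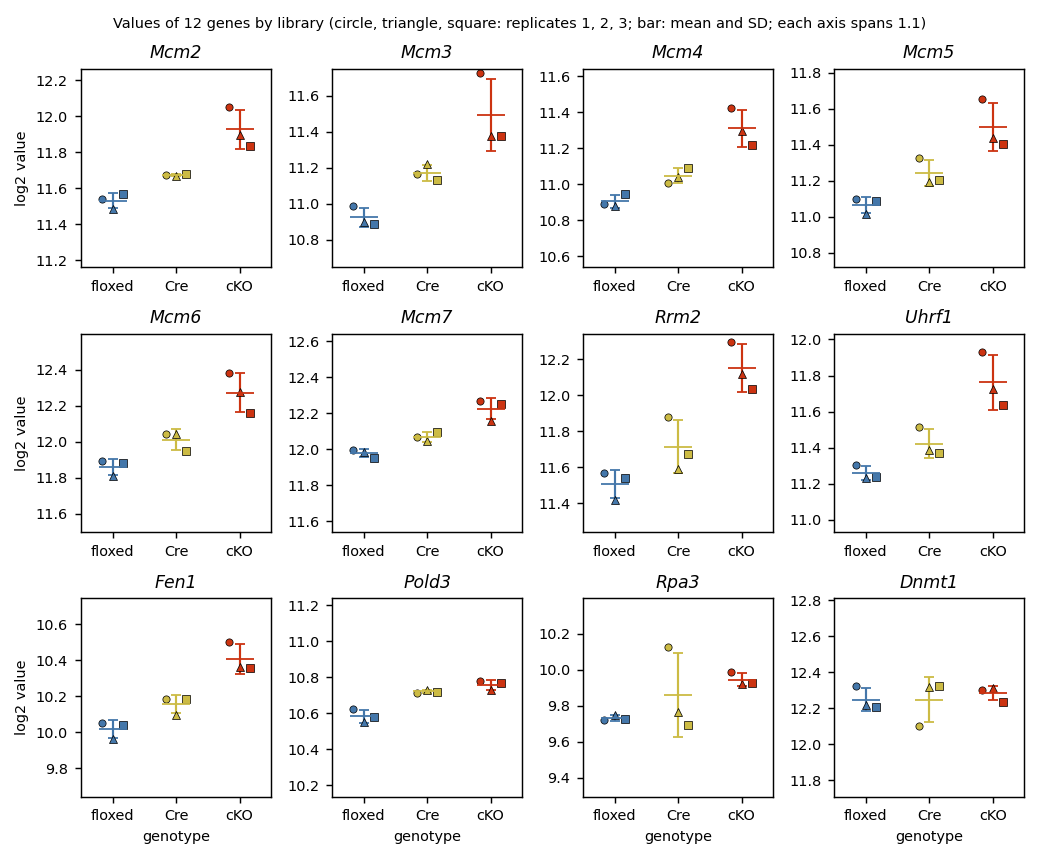
Log2 values (y axis, 1.1 units tall in every panel) of 12 genes in the 9 libraries by genotype, with the mean and SD of each group (n = 3). Mcm2 to Mcm7, Rrm2, Uhrf1 and Fen1 step up from floxed control to Cre control to cKO without overlap, Pold3 steps up at the Cre control, Rpa3 has a high Cre control replicate 1 (10.12), and Dnmt1 overlaps throughout.

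The helicase activation genes all rose against the floxed control and none passed against the Cre control. Cdc45 and the GINS subunits Gins1 to Gins4 join MCM to make the active helicase, and Mcm10 helps to fire it. Mcm10 (chromosome 2) had values of 9.10, 9.0 and 8.85 in the floxed control, 9.38, 9.22 and 9.15 in the Cre control and 9.67, 9.39 and 9.42 in the cKO. Its groups stood in order without overlap, and it differed by 0.51 (SE 0.091, adjusted p = 0.00246) from the floxed control and by 0.25 (SE 0.091, adjusted p = 0.108) from the Cre control. Gins4 (chromosome 8), the smallest of the group, had 9.93, 9.91 and 9.85 in the floxed control, 10.03, 9.93 and 9.98 in the Cre control and 10.13, 10.12 and 10.09 in the cKO. The cKO was above both controls in every library while the controls met at 9.93, and the differences were 0.21 (SE 0.044, adjusted p = 0.00439) and 0.13 (SE 0.044, adjusted p = 0.0807).

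Cdc45 differed by 0.47 (adjusted p = 0.000721) from the floxed control and 0.20 (adjusted p = 0.0618) from the Cre control, Gins1 by 0.34 and 0.18, Gins2 by 0.62 and 0.22, and Gins3 by 0.31 and 0.18. Gins2 had the second largest difference from the floxed control of all members (1.54-fold, adjusted p = 0.00138) and the largest between the 2 controls, 0.41 (adjusted p = 0.145). Without Cre control replicate 1, all 6 genes passed against the Cre control, and in none of the other 8 fits did any of them. Relative to the floxed control, the call of Gins3 was lost when floxed control replicate 3 or cKO replicate 1 was left out (adjusted p = 0.0527 and 0.0508). Exons of Gins2 share 67.3% of their bases with Gse1 on the opposite strand, and the sources used here do not say whether the libraries kept strand. Gse1 itself differed by -0.0026 from the floxed control.

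Of the polymerase genes, 8 of 9 rose relative to the floxed control and 2 relative to the Cre control. Pold1 (chromosome 7), the catalytic subunit of polymerase delta, had values of 10.24, 10.08 and 10.20 in the floxed control, 10.40, 10.29 and 10.24 in the Cre control and 10.70, 10.61 and 10.52 in the cKO. The cKO was above both controls in every library, the lowest Cre control library was level with the highest floxed control library, and the differences were 0.43 (SE 0.062, adjusted p = 0.00105) and 0.30 (SE 0.062, adjusted p = 0.0219). Its partner Pold2 (chromosome 11) had 10.31, 10.25 and 10.34 in the floxed control, 10.32, 10.36 and 10.25 in the Cre control and 10.61, 10.42 and 10.35 in the cKO. The 2 controls were mixed and cKO replicate 3 lay among them, while cKO replicates 1 and 2 were above all of them, with differences of 0.16 (SE 0.065, adjusted p = 0.0759) and 0.15 (SE 0.065, adjusted p = 0.159). The first of these passed when cKO replicate 3 was left out (adjusted p = 0.0357).

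Pold3 (chromosome 7), the accessory subunit, had 10.62, 10.55 and 10.58 in the floxed control, 10.72, 10.73 and 10.72 in the Cre control and 10.78, 10.73 and 10.77 in the cKO. All 3 Cre control libraries lay above the floxed control and next to the cKO, so that the difference was 0.18 (SE 0.037, adjusted p = 0.00496) from the floxed control but 0.036 (SE 0.037, adjusted p = 0.537) from the Cre control. The difference of the Cre control from the floxed control was 0.14 (unadjusted p = 0.00348, adjusted p = 0.157). The other catalytic subunits differed from the floxed control by 0.29 (Pola1, polymerase alpha, adjusted p = 0.0066) and 0.43 (Pole, polymerase epsilon, adjusted p = 0.00903), and neither passed against the Cre control (0.077 and 0.19). Pola2, the alpha accessory subunit, passed both, with 0.35 and 0.22 (adjusted p = 0.00198 and 0.048). The primase subunits Prim1 and Prim2 had 0.29 and 0.17 against the floxed control (adjusted p = 0.00818 and 0.0234) and Pole2 had 0.30 (adjusted p = 0.0133). The call of Prim2 was lost when any of floxed control replicates 2 and 3 and cKO replicates 1 and 2 was left out (adjusted p = 0.0728, 0.0573, 0.0896 and 0.0599 in turn), and that of Pole2 when cKO replicate 1 was (0.0522).

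For the clamp and its loader, 5 of 6 genes rose against the floxed control and only Rfc1 relative to the Cre control. Pcna encodes the ring that holds polymerases on DNA and Rfc1 to Rfc5 form the complex that opens it. Rfc1 (chromosome 5), the large subunit, had values of 10.91, 10.92 and 10.90 in the floxed control, 11.08, 10.98 and 11.01 in the Cre control and 11.31, 11.29 and 11.17 in the cKO. Its groups stood in order without overlap, with tight floxed controls, and differed by 0.35 (SE 0.046, adjusted p = 0.000742) and 0.23 (SE 0.046, adjusted p = 0.0187). Rfc2 (chromosome 5) had 11.07, 10.99 and 10.99 in the floxed control, 11.18, 11.0 and 11.02 in the Cre control and 11.27, 11.14 and 11.09 in the cKO. Its cKO libraries lay just above the floxed control and mixed with Cre control replicate 1, and the differences were 0.15 (SE 0.060, adjusted p = 0.0708) and 0.098 (SE 0.060, adjusted p = 0.297). That from the floxed control passed with only the 6 libraries compared (adjusted p = 0.0382) and when Cre control replicate 1 was left out (0.0253).

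Pcna differed by 0.41 (adjusted p = 0.00373) from the floxed control and by 0.20 (adjusted p = 0.131) from the Cre control. Rfc3, Rfc4 and Rfc5 differed by 0.20, 0.43 and 0.50 from the floxed control (adjusted p = 0.022, 0.00546 and 0.00229) and by 0.13, 0.21 and 0.22 from the Cre control. The call of Rfc3 was lost when any of floxed control replicates 1 and 2 and cKO replicates 1 and 3 was left out (adjusted p = 0.0687, 0.0589, 0.0869 and 0.0516 in turn). Without Cre control replicate 1, Pcna, Rfc3, Rfc4 and Rfc5 passed against the Cre control (adjusted p from 0.00395 for Pcna to 0.0331 for Rfc3). Exons of Rfc4 and Rfc5 share 12.7% and 10.7% of their bases with Eif4a2 and Wsb2 on the opposite strand, 2 genes that fell by 0.29 each against the floxed control, and Rfc2 shares 15.1% with Lat2. Pcna also has 2 annotated pseudogenes of its name.

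Among the single-strand binding and Okazaki fragment genes, 4 of 5 rose against the floxed control and Fen1 and Lig1 against the Cre control. Fen1 (chromosome 19), the nuclease that trims flaps, had values of 10.05, 9.96 and 10.04 in the floxed control, 10.18, 10.10 and 10.19 in the Cre control and 10.50, 10.36 and 10.36 in the cKO. Its groups did not overlap, and it differed by 0.39 (SE 0.052, adjusted p = 0.0008) and 0.25 (SE 0.052, adjusted p = 0.0223). Lig1, the ligase that seals the fragments, differed by 0.36 and 0.25 (adjusted p = 0.00162 and 0.0314).

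RPA coats single-stranded DNA, and its subunits Rpa1 and Rpa2 differed from the floxed control by 0.24 and 0.41 (adjusted p = 0.00212 and 0.00082) and from the Cre control by 0.12 and 0.19 (adjusted p = 0.093 and 0.0605). Rpa3 (chromosome 6), the smallest subunit, had 9.72, 9.75 and 9.73 in the floxed control, 10.12, 9.76 and 9.69 in the Cre control and 9.99, 9.92 and 9.93 in the cKO. Cre control replicate 1 was the highest of all 9 libraries while Cre control replicates 2 and 3 sat with the floxed control, and the differences were 0.21 (SE 0.093, adjusted p = 0.0947) and 0.086 (SE 0.093, adjusted p = 0.568). The fit shares its estimate of the spread over the 3 groups, and without Cre control replicate 1 the difference of 0.21 from the floxed control passed (adjusted p = 0.00216), as it did with only the 6 libraries compared (0.00355).

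All 4 genes of deoxynucleotide synthesis rose against the floxed control, and the 2 subunits of ribonucleotide reductase against the Cre control. Rrm2 (chromosome 12), the small subunit whose level limits the enzyme in S phase, had values of 11.57, 11.42 and 11.54 in the floxed control, 11.88, 11.59 and 11.68 in the Cre control and 12.30, 12.12 and 12.04 in the cKO. No groups overlapped, and Rrm2 had the largest difference of all members in both comparisons, 0.64 (SE 0.084, adjusted p = 0.000721) (1.56-fold) and 0.43 (SE 0.084, adjusted p = 0.0174) (1.35-fold). Rrm1, the large subunit, differed by 0.41 and 0.25 (adjusted p = 0.00145 and 0.0418). Tyms (chromosome 5), thymidylate synthase, had 9.97, 10.05 and 9.93 in the floxed control, 10.42, 10.18 and 10.24 in the Cre control and 10.57, 10.47 and 10.35 in the cKO. Cre control replicate 1 lay inside the cKO range here, and the difference from the Cre control, 0.19 (SE 0.074, adjusted p = 0.129), did not pass while that from the floxed control, 0.48 (SE 0.074, adjusted p = 0.00131), did. Tk1, thymidine kinase, had 0.47 and 0.22 (adjusted p = 0.00242 and 0.114). Tyms has 1 annotated pseudogene of its name.

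Of the genes that copy chromatin, 3 of 4 rose in both comparisons and Dnmt1 in neither. Uhrf1 (chromosome 17) recognises hemimethylated DNA behind the fork and recruits Dnmt1, the maintenance DNA methyltransferase. Uhrf1 had values of 11.30, 11.23 and 11.24 in the floxed control, 11.51, 11.39 and 11.37 in the Cre control and 11.93, 11.72 and 11.63 in the cKO. Its groups did not overlap and it differed by 0.51 (SE 0.071, adjusted p = 0.000945) and 0.34 (SE 0.071, adjusted p = 0.0219). Dnmt1 (chromosome 9) had 12.32, 12.22 and 12.21 in the floxed control, 12.10, 12.32 and 12.32 in the Cre control and 12.30, 12.31 and 12.24 in the cKO. All groups overlapped and the lowest value was Cre control replicate 1, the library that was the highest of its group for 35 members. Dnmt1 differed by 0.035 (SE 0.061, adjusted p = 0.676) from the floxed control and by 0.036 (SE 0.061, adjusted p = 0.73) from the Cre control, with 95% intervals of -0.10 to 0.17 for each. An E2F word was in a promoter window of Dnmt1 as it was in that of Uhrf1.

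Chaf1a and Chaf1b encode subunits of CAF-1, which places histones on new DNA. They differed from the floxed control by 0.48 and 0.45 (adjusted p = 0.000337 and 0.00242) and from the Cre control by 0.30 and 0.29 (adjusted p = 0.0121 and 0.0479). Chaf1a had the lowest adjusted p of the members in both comparisons, and each cKO library was above each control library for both genes. Exons of Chaf1a share 52.5% of their bases with Ubxn6 on the opposite strand, which differed by -0.11 from the floxed control (adjusted p = 0.0915).

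**Figure D5:**
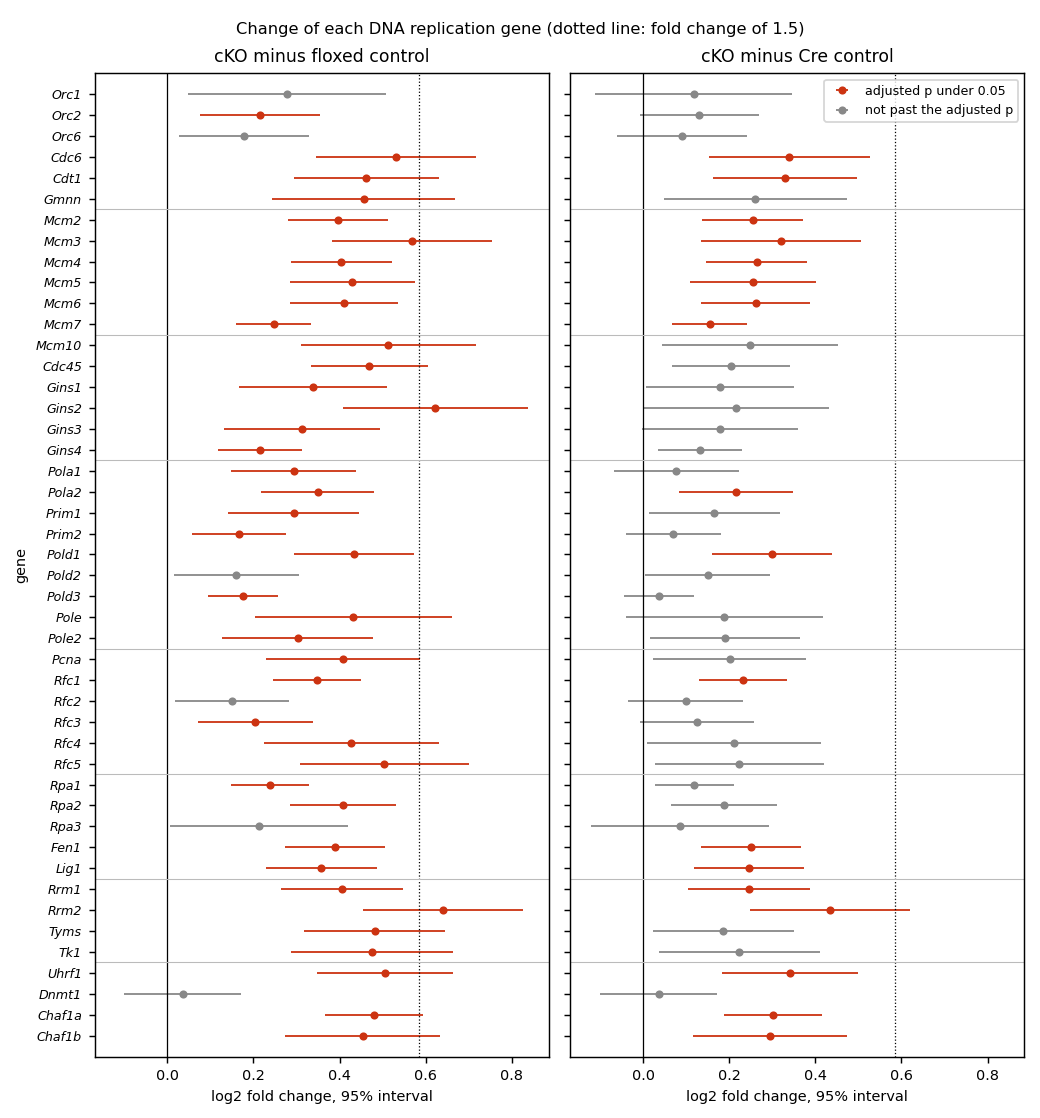
Log2 fold change with its 95% interval (x axis) of each of the 46 genes in the cKO against the floxed control (left) and the Cre control (right), red where the adjusted p by limma was under 0.05, with the dotted line at 1.5-fold. All points lie right of 0, 40 are red on the left and 18 on the right, and Dnmt1 and Pold3 lie nearest to 0 on the right.

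Across roles, the medians against the floxed control ran from 0.29 for the polymerases to 0.48 for deoxynucleotide synthesis, and against the Cre control from 0.17 for the polymerases to 0.30 for chromatin copying. The median of the MCM ring was 0.41 and 0.26 in turn. The full order of groups without overlap held for 6 of 6 MCM genes, 4 of 5 single-strand binding and Okazaki genes and 3 of 4 chromatin genes, but for 1 of 6 clamp and loader genes and 2 of 9 polymerase genes. Differences between roles were not tested.

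Genes that work beside the members passed mainly against the floxed control. Of 32 other replication factors tested (regulatory kinases, further origin recognition and fork proteins), 19 rose against the floxed control with a median of 0.20 and none against the Cre control with a median of 0.12 by limma. At an unadjusted p under 0.05, 12 of them were higher than in the Cre control, where 2157 of all 14029 genes tested were. The largest differences from the floxed control were those of the histone chaperone Asf1b (0.49) and the helicase Recql4 (0.47), and the smallest those of the kinase Cdc7 (-0.078) and Orc4 (-0.10), neither of which passed (adjusted p = 0.292 and 0.262). In 8 further genes of nucleotide synthesis, 6 rose and 1 fell against the floxed control and none passed against the Cre control, where 4 were higher at an unadjusted p. Shmt1, which makes a folate that Tyms uses, had 0.37, while Tk2, the mitochondrial thymidine kinase, had -0.085 (adjusted p = 0.0969). Rrm2b, the p53-inducible subunit of ribonucleotide reductase used outside S phase, fell by 0.19 (adjusted p = 0.011), opposite to Rrm2.

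Regulators of S phase entry were mostly higher. Of 18 genes, 13 rose and 1 fell against the floxed control (median 0.28) and 3 rose against the Cre control (median 0.13). The cyclins Ccna2 and Ccne2 had 0.50 and 0.48, the pocket protein gene Rbl2 had -0.011 (adjusted p = 0.921), and Rb1, which restrains E2F, fell by 0.25 (adjusted p = 0.0135). All 20 mitosis genes rose against the floxed control (median 0.54, 6 past 1.5-fold) and 11 against the Cre control (median 0.26). Birc5 and Ccnb2 had the largest differences from the floxed control, 0.64 and 0.61, and Cenpf and Cenpe the smallest, 0.34 each. The mitosis genes deviated by 0.11 in Cre control replicate 1 and by 0.36 in cKO replicate 1, the highest of their groups as for the members. No difference between lists was tested.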

How the data were processed

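Poly-A RNA-seq libraries were made from midbrains of 9 embryo samples. Per the labels and the submitters' processing notes, the authors checked reads with FastQC 0.10.1, quantified them with kallisto 0.46.1 against mm10 and processed them with DESeq2, and deposited log2 values for 27360 rows, of which 5764 have no gene name. These log2 values are transformed and may pull low values together, so fold changes of low genes may be understated. No depth can be read from them. The transformation and strandedness are not given in the sources used here.

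Of rows with the same name, 240 were dropped, and genes reaching 1 cpm (linear values rescaled) in 3 or more libraries were kept. All 9 libraries were fitted with limma 3.58.1 (R 4.3.3, eBayes with a trend), with Benjamini-Hochberg adjustment over 14029 genes, so every adjusted p is limma's. Genes past 0.05 were called, and those also past 1.5-fold were the differentially expressed genes. An exact permutation test of 3 against 3 libraries cannot go below 0.1, so none was run. The self-test on simulated data was run on the same fit. Positions and exon overlaps came from GENCODE M21 and promoters from RefSeq. The replicate numbers are not known to mark pairs or batches and were not used as pairs in the main fit. Correlations between libraries were taken over the genes tested after each gene's group mean was subtracted. What remained in same-numbered libraries of different groups correlated at -0.027 to 0.26. Members and lists were chosen with earlier results of these data known. Named with values in every library were the MCM genes, the largest and smallest differences from the Cre control in each other role, and members not past the adjusted p against the floxed control. Outside the members, the 2 largest and 2 smallest differences of each of 4 lists, except 1 gene that is not reported here, and Gpr161 were named, and, after their values were seen, genes that share exons with members. Alternatives were other filters, scalings, a fit without the trend, only the libraries compared, a replicate block and leaving out libraries.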

Additional observations from a re-analysis of the deposited data

How the results depend on the processing

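Against the floxed control, the count of 40 members higher stayed between 35 and 44 and the median between 0.33 and 0.43 over the fits that left out 1 library. The count of differentially expressed members, 2, ranged from 0 to 4 in those fits and was 0 without Cre control replicate 1 and cKO replicate 1 (a setting chosen after seeing the data). Against the Cre control, the 18 members became 11 with no filter on low values, 3 with only the 6 libraries compared and 34 at an unadjusted p, and ranged from 1 to 37 when 1 library was left out. At the unadjusted p, 2157 of the 14029 genes tested were higher than in the Cre control. Over all genes, 1363 calls against the Cre control became 873 with no filter, 437 with the 6 libraries, 2218 with both libraries numbered 1 left out, and 237 to 3292 when 1 was. Between the controls, 0 members became 27 at an unadjusted p, and 8 calls over all genes became 5 with no filter, 3 with the 6 libraries, 13 without the trend, 47 with both left out and 1 to 57 when 1 was. Apart from the construction of each setting, the cause was not tested. Signs turned in 5 differences that had not passed. With 1 library left out, the difference of Dnmt1 between cKO and Cre control ranged from -0.037 (without Cre control replicate 1) to 0.074, and it was -0.045 with both libraries numbered 1 left out. Between the controls the ranges were -0.038 to 0.072 for Dnmt1, -0.014 to 0.041 for Pold2, -0.0041 to 0.084 for Rfc2 and -0.0044 to 0.21 for Rpa3. With both left out Dnmt1 was 0.072, Rfc2 -0.0041 and Rpa3 -0.0044, and Dnmt1 was 0.030 with quantile normalization. With a replicate block, 43 members passed for cKO and floxed control, 24 for cKO and Cre control and 0 between the controls (5683, 1774 and 9 of all genes). The numbers are not known to mark pairs. With each gene's group mean subtracted, what remained in same-numbered libraries correlated at -0.027 to 0.26 (9 pairs, median 0.10). Other pairs between groups gave -0.28 to 0.16 (18 pairs, median -0.053). The remainders within a group cancel for each gene, so these pairs are not independent. The highest value, 0.26, was that of Cre control replicate 1 with cKO replicate 1. Whether the numbers share a batch was not tested. With 3 libraries a group and unknown depth, small differences between roles cannot be resolved.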

Other observations

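Beyond the members, 486 tested genes had an E2F word in a promoter window. Of these, 27.0% were higher and 14.8% lower in the cKO than in the floxed control, while of 10985 tested genes with a window, members left out, the shares were 19.3% and 18.4%. With the Cre control as the reference, the shares were 4.94% and 2.47%, next to 4.65% and 4.64%. The median differences of the genes with an E2F word were 0.038 from the floxed control and 0.035 from the Cre control. Those of the 10985 genes with a window were 0.012 and 0.013. No difference between these sets was tested.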
